A study of Mus musculus with 7 samples.

Results

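Expression of 35 imprinted genes was examined in cloned mouse embryos from somatic cell nuclear transfer (SCNT), a method that injects a cumulus cell nucleus into an oocyte without chromosomes of its own. The genes were chosen by symbol from a list of imprinted genes, out of 24319 rows of the deposited table, and all 35 were found, with Phf17 listed under its RefSeq name Jade1. They comprise 4 genes whose maternal allele is silenced by maternal H3K27me3, 14 that are maternally expressed and 17 that are paternally expressed. The embryos were of the B6D2F1 strain, of wild-type genotype, and every one of them had received mRNA of Kdm4a, a histone H3K9 demethylase, so no group lacks it. CROC+K+M embryos (2 libraries) came from cryopreserved oocytes, vitrified and warmed, and were treated with melatonin at 10 µM. CROC+K embryos (3 libraries) came from cryopreserved oocytes without melatonin, and FOC+K embryos (2 libraries) from fresh oocytes. The treatment protocol names a vehicle, without saying which samples received it. Each library is a pool of 50 to 100 embryos labelled as 2-cell, while that protocol mentions blastocysts as well.

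Genomic imprinting restricts expression of a gene to the allele inherited from one parent. Most imprints are DNA methylation marks set in the egg or sperm and protected after fertilization by factors such as ZFP57 with TRIM28. A smaller class, to which Sfmbt2, Gab1, Jade1, Slc38a4 and Xist belong in the mouse embryo, is silenced on the maternal allele by H3K27me3 laid down in the oocyte. A somatic donor nucleus lacks this oocyte-derived mark, and loss of this imprint is known from SCNT embryos. FPKM (fragments per kilobase of transcript scaled by the number of mapped fragments) sums both alleles, so the values below are levels of expression and not measures of imprinting.

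The start regions of the genes imprinted by H3K27me3 are shown because all 4 passed the filter and 3 of them had the lowest unadjusted p-values among the 35 genes in CROC+K+M against CROC+K. Each line gives 1 window of 300 bases, from 250 bases before to 50 bases after an annotated start, from RefSeq on GRCm38.p6, 5′ to 3′ on the gene's strand. Capitals mark CG, the dinucleotide that DNA methylation uses. Where a gene has several annotated starts, the window with the most CG is given. The 3 windows of Slc38a4 hold 5 CG each, so 1 of these equal windows is given. The Sfmbt2 window is chr2:10372186-10372485, plus strand, the Gab1 window chr8:80880430-80880729, minus strand, the Jade1 window chr3:41563501-41563800, plus strand, and the Slc38a4 window chr15:97055907-97056206, minus strand.
Sfmbt2: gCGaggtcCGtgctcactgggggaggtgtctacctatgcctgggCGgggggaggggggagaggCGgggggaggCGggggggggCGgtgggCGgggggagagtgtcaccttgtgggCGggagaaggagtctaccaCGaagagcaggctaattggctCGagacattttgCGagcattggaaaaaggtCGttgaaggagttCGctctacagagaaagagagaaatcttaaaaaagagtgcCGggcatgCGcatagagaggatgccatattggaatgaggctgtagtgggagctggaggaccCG
Gab1: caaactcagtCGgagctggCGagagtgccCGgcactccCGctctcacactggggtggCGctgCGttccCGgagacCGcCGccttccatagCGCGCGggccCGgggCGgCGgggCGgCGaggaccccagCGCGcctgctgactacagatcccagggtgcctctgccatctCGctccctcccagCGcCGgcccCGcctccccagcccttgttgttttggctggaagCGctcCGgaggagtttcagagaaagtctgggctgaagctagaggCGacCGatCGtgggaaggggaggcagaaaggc
Jade1: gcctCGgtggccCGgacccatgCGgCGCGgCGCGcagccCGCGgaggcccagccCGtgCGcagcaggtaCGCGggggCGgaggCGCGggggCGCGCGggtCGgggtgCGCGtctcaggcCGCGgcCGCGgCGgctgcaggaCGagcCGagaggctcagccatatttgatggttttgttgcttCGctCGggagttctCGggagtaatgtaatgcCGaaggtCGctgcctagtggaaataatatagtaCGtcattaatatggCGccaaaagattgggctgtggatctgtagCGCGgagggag
Slc38a4: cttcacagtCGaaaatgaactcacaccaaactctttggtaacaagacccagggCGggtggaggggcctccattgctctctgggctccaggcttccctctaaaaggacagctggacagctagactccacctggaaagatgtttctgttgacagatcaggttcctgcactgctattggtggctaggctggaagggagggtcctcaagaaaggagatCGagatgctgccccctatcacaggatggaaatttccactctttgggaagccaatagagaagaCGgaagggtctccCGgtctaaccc

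The windows differed widely in CG content. Jade1 held 38 CG, as many as or more than 95.6% of all promoter windows, and Gab1 held 28 (87.1%). Sfmbt2 held 16 (68.6%), and Slc38a4 held 5 (43.6%). These shares set a gene's window with the most CG against every window of all genes, which raises them where a gene's windows differ. The other windows of Jade1 held 18, 14 and 25 CG, that of Gab1 held 26 and that of Sfmbt2 held 9. Among the 35 genes, 28 had at least 1 window in the RefSeq table, 45 windows in all, with a median of 16 CG, against 7 over 32851 windows of all genes. Impact, H19, Sgce, Dcn, Cdkn1c, Peg10 and Kcnq1 were without one. The ZFP57 motif TGCCGC, searched on both strands, occurred in 9 of the 45 windows (20%), against 3813 of all windows (11.6%). Windows of 1 gene can overlap, as for Mest. By gene, the motif was in 8 of the 28, against 3527 of 27025 genes. It was in none of the 11 windows of the genes imprinted by H3K27me3. Of maternally expressed genes, 3 of 15 windows (3 of 10 genes) held it, and of paternally expressed genes, 6 of 19 (5 of 14 genes). A match describes these letters in these windows and not a bound site.

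The 7 libraries were not alike in facts that touch the imprinted genes. CROC+K+M replicate 1 held a trophectoderm programme: the 20 markers of trophectoderm and epithelium summed to 34382 FPKM with all 20 at 1 FPKM or more, against 116 to 220 FPKM and 9 to 12 genes in the other 6 libraries, in which Cdx2 was listed at 0. In that library Cdx2 was at 6.97, Krt8 at 300.2, Krt18 at 750.3 and Fabp3 at 24404 FPKM, so its trophectoderm markers go against its label of 2-cell embryos. Its sums of transient 2-cell and of oocyte genes, given below, lay within the range of the other libraries. The 16 measured genes of the transient 2-cell programme, such as the Zscan4 family, summed to 496 and 223 FPKM in CROC+K+M, to 179, 1015 and 1434 in CROC+K, and to 594 and 243 in FOC+K. Rn45s, the ribosomal RNA precursor, parted the libraries across the groups, at 224 and 175 FPKM in CROC+K+M, 2114, 266 and 237 in CROC+K, and 1183 and 1047 in FOC+K. All 17 oocyte genes were at 1 FPKM or more in every library, with sums of 4220 to 6796. Cumulus cell markers summed to 16.5 to 29.6 FPKM, with Ptx3 and Pgr at 0 in all 7, and inner cell mass markers to 52.9 to 84.97. Kdm4a, which includes the injected mRNA, was at 2797 and 689 FPKM in CROC+K+M, 497, 4051 and 4949 in CROC+K, and 2014 and 816 in FOC+K. FPKM sums ran from 552360 to 1018000, and 10496 to 11518 genes reached 1 FPKM. The number of reads behind them is unknown.

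Of the 35 imprinted genes, 20 reached 1 FPKM in at least 2 libraries and were tested: all 4 imprinted by H3K27me3, 10 of 14 maternally expressed and 6 of 17 paternally expressed. Only 7 had a mean of 10 FPKM or more over the 7 libraries, and 11 were at 1 FPKM or more in every library. The order of mean levels began with Phlda2, at 81.3 FPKM, and Gnas, at 65.9. Mest at 15.1, Ube3a at 14.0, Ascl2 at 12.9, Slc38a4 at 12.03 and Impact at 10.5 FPKM followed. The Slc38a4 mean rests on 1 library, and the ranges over the 7 libraries overlap among these 5 genes, as they do between Phlda2 and Gnas. The remaining 13 tested genes averaged under 10 FPKM, down to 0.831 for Igf2r.

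**Figure D1:**
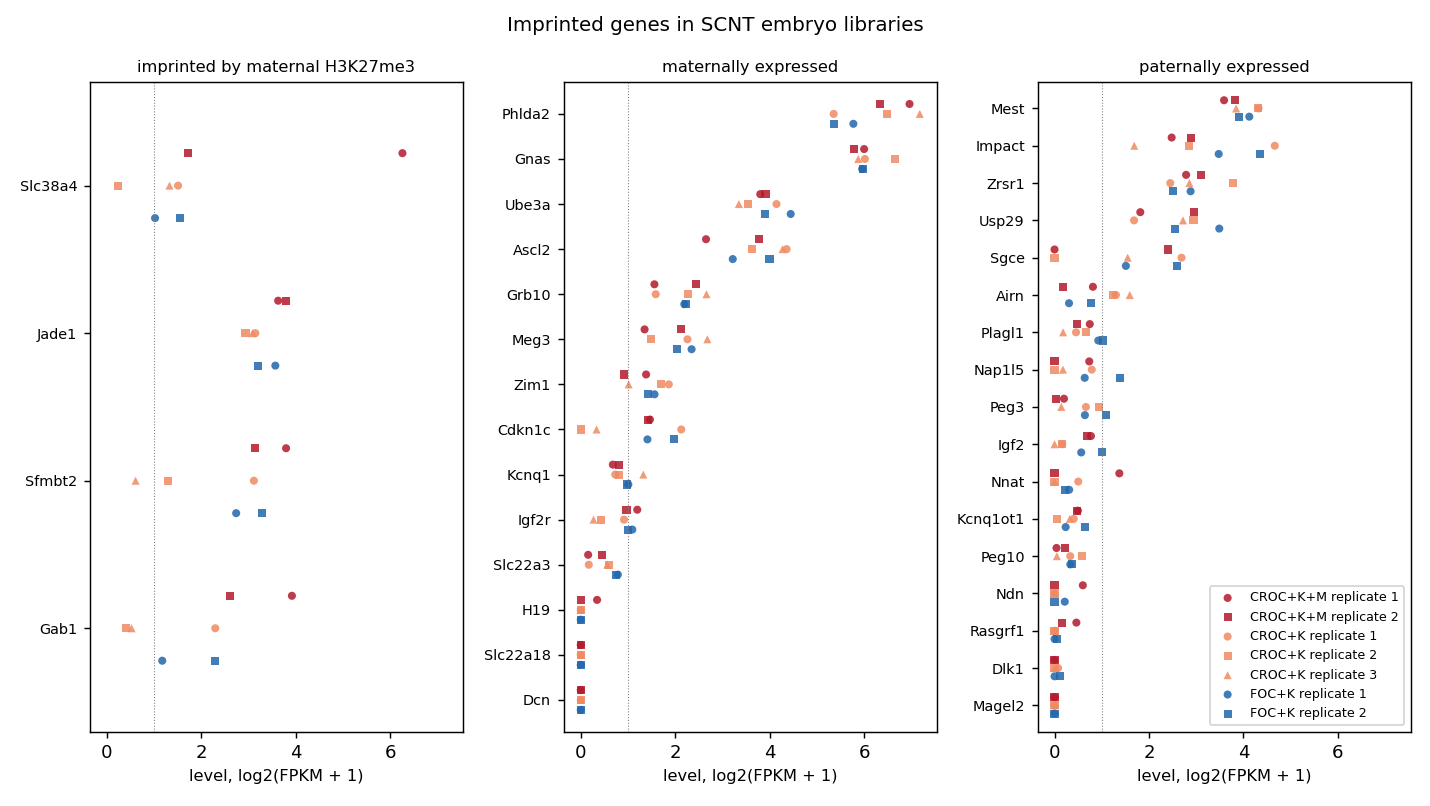
Level of each of the 35 imprinted genes as log2(FPKM + 1), one point per library (red, CROC+K+M; orange, CROC+K; blue, FOC+K; the shape gives the replicate); the dotted line marks 1 FPKM. Phlda2 and Gnas lie highest in 6 of the 7 libraries, most paternally expressed genes lie left of the line, and CROC+K+M replicate 1 stands apart for Slc38a4, which there lies between them.

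The other 15 genes were not tested. Slc22a18, an organic cation transporter, Dcn, which encodes the proteoglycan decorin, and Magel2, a neuronal MAGE-family gene, were listed at 0 in all 7 libraries. H19, a long non-coding RNA of fetal growth control, was at 0.271 FPKM in CROC+K+M replicate 1 and at 0 in the other 6 libraries. Igf2, the fetal growth factor that neighbours it, was at 0.707 and 0.616 FPKM in CROC+K+M, 0.119, 0.120 and 0 in CROC+K, and 0.479 and 0.994 in FOC+K. Both of the CROC+K+M and both of the FOC+K libraries thus lay above all 3 CROC+K libraries for Igf2, at levels under 1 FPKM. Over the genes tested, which leave Igf2 out, CROC+K+M lay above CROC+K in 12.3% and FOC+K above CROC+K in 9.47%. Both orders rest on the same CROC+K libraries. Slc22a3, a transporter gene of the Igf2r cluster, ran from 0.115 to 0.724 FPKM. Peg3, a zinc finger gene, ran from 0.0240 to 1.14 FPKM, Plagl1, a zinc finger regulator of growth, from 0.134 to 1.03, and Nap1l5 from 0 to 1.62. Nnat, which encodes the proteolipid neuronatin, was at 1.59 FPKM in CROC+K+M replicate 1 and at most 0.417 elsewhere. Kcnq1ot1, the non-coding RNA of the Kcnq1 cluster, Peg10, a retrotransposon-derived placental gene, Ndn, Rasgrf1 and Dlk1 stayed under 0.6 FPKM in all 7 libraries.

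Setting CROC+K+M against CROC+K asks how imprinted genes differ when embryos from cryopreserved oocytes receive melatonin. All 4 genes imprinted by H3K27me3 were higher in both CROC+K+M libraries than in all 3 CROC+K libraries, but none of them passed the test. No gene of the 12272 tested had an adjusted p under 0.05 (0% of genes; limma, Benjamini-Hochberg), and the smallest adjusted p was 0.108. Fold changes below are on the log2(FPKM + 1) scale with limma's standard error, and each adjusted p is over all genes tested.

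Sfmbt2, a Polycomb group gene required for trophoblast maintenance, was at 12.9 and 7.75 FPKM in CROC+K+M, against 7.65, 1.44 and 0.523 FPKM in CROC+K. The groups touch, since the lower CROC+K+M library lay only just above the highest CROC+K library. Its log2 difference was 1.79 ± 0.70 (unadjusted p = 0.036, adjusted p = 0.455, limma). Gab1, an adaptor of growth factor receptor signalling needed for placental growth, was at 14.1 and 5.06 FPKM in CROC+K+M, against 3.90, 0.317 and 0.435 in CROC+K. CROC+K replicate 1 lay nearer to CROC+K+M replicate 2 than to the other libraries of its own group. The log2 difference of Gab1 was 2.19 ± 0.71, with a 95% confidence interval of 0.53 to 3.84 (unadjusted p = 0.016, adjusted p = 0.412, limma). Slc38a4, an amino acid transporter of the placenta, was at 75.5 and 2.31 FPKM in CROC+K+M, against 1.84, 0.169 and 1.51 in CROC+K. One library, CROC+K+M replicate 1, carried this difference. The log2 difference was 2.97 ± 1.16 (unadjusted p = 0.035, adjusted p = 0.453, limma), and 0.71 without that library. Jade1, which encodes a subunit of a histone H4 acetyltransferase complex, was at 11.3 and 12.9 FPKM in CROC+K+M, against 7.83, 6.64 and 7.48 in CROC+K, the narrowest spread within groups of the 4. Its log2 difference was 0.66 ± 0.29 (unadjusted p = 0.057, adjusted p = 0.483, limma).

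The median log2 difference of the 4 genes was 1.99, against 0.06 over all genes tested. A gene lay above all CROC+K libraries in both CROC+K+M libraries in 12.3% of the genes tested and below them in 11.2%, and 10.4% had an unadjusted p under 0.05. Of the 20 imprinted genes, 5 lay above (the 4 and Igf2r), 2 lay below (Airn and Mest) and 13 overlapped. Unadjusted p-values were under 0.05 for 3 higher genes (Sfmbt2, Gab1 and Slc38a4) and 1 lower gene (Airn), against 6.69% of all genes higher and 3.75% lower.

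Without CROC+K+M replicate 1, the library with trophectoderm markers, the log2 differences were 1.53 for Gab1, 1.46 for Sfmbt2, 0.75 for Jade1 and 0.71 for Slc38a4. Their median was then 1.10. CROC+K+M replicate 2 alone lay above all 3 CROC+K libraries for 25.9% of genes tested. That it did so for each of the 4 follows from the order of both libraries given above and is no further check. In replicate 2 the trophectoderm list was at 160 FPKM, within the range of the other 5 libraries, with Cdx2 at 0. Within the 4 libraries with low Rn45s, which keep CROC+K+M replicate 1 and leave out CROC+K replicate 1, the median of the 4 genes was 2.66. CROC+K replicate 1 was the highest library of its group for each of the 4, so leaving it out had to raise the differences. When libraries were scaled to equal FPKM sums, which moved the median of all genes to -0.14, only Gab1 lay above all CROC+K libraries in both CROC+K+M libraries (6.70% of genes). The median of the 4 genes was then 1.70, and all 4 had the higher mean in CROC+K+M.

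**Figure D2:**
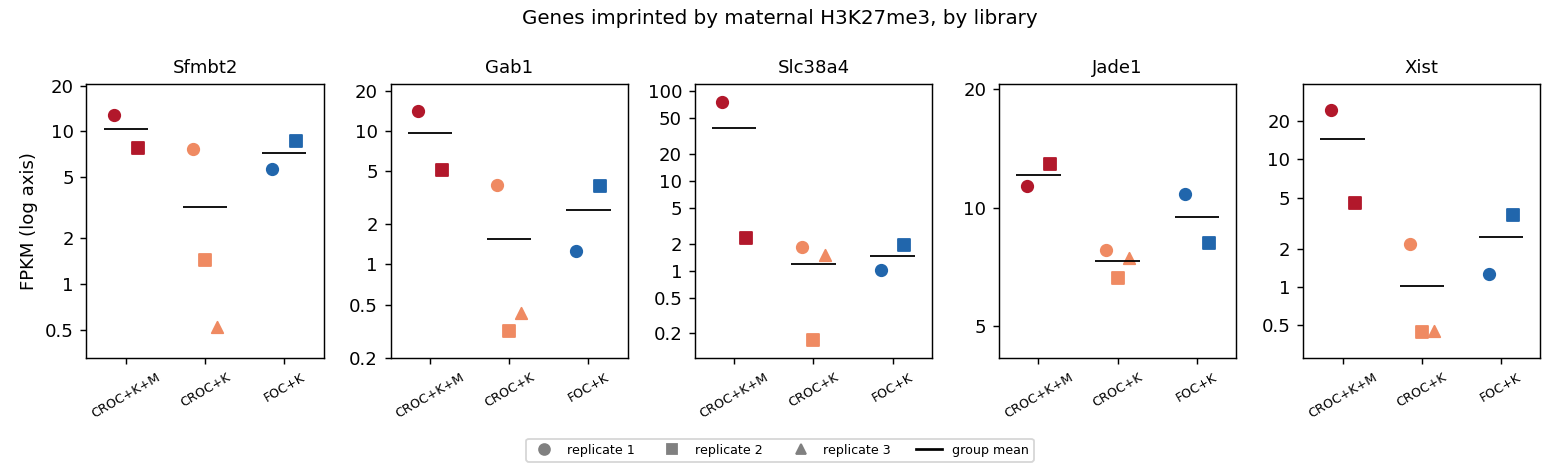
FPKM of the 4 genes imprinted by maternal H3K27me3 and of Xist in each library, on log axes, with the replicate number by shape and group means as lines. CROC+K+M replicate 1 is highest in 4 of the 5 panels, and CROC+K replicates 2 and 3 lie lowest for Sfmbt2, Gab1 and Xist.

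Xist, the non-coding RNA that silences an X chromosome and that is imprinted in the same way, was at 24.6 and 4.55 FPKM in CROC+K+M, against 2.17, 0.440 and 0.448 in CROC+K and 1.26 and 3.67 in FOC+K. Its order over the 7 libraries was close to that of Gab1: CROC+K replicates 2 and 3 lowest, then FOC+K replicate 1, and CROC+K+M replicates 2 and 1 highest. The CROC+K+M difference from CROC+K was 2.67 ± 0.72 on the log2 scale (unadjusted p = 0.0065, adjusted p = 0.408, limma), and 1.56 without CROC+K+M replicate 1. The 3 libraries lowest for Gab1 and Xist had the highest sums of the transient 2-cell list, of 1015, 1434 and 594 FPKM. The part of this programme in the differences was not tested. In pooled embryos, fewer cells that express a gene and less RNA per cell cannot be told apart.

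Among the 10 tested maternally expressed genes, 4 were higher and 6 lower in CROC+K+M relative to CROC+K, with a median log2 difference of -0.19, and none had an unadjusted p under 0.05. Over all genes tested, 54.1% had the higher mean in CROC+K+M. Phlda2, a PH-domain gene that restrains placental growth, was at 124 and 79.6 FPKM in CROC+K+M, against 39.9, 88.6 and 144 in CROC+K. Gnas, which encodes the stimulatory G protein alpha subunit, was at 63.0 and 54.4 FPKM in CROC+K+M, against 63.7, 99.5 and 57.7 in CROC+K. In both genes the CROC+K libraries spread more widely than the 2 groups differ. Ube3a, an E3 ubiquitin ligase imprinted in neurons, was at 12.9 and 14.1 FPKM in CROC+K+M, against 16.7, 10.7 and 9.18 in CROC+K. Ascl2, a transcription factor of the placental spongiotrophoblast, was at 5.29 and 12.7 FPKM in CROC+K+M, against 19.5, 11.3 and 18.3 in CROC+K (log2 difference -0.87 ± 0.46, unadjusted p = 0.096, adjusted p = 0.536, limma). It was lowest in the library with trophectoderm markers, yet the groups overlapped.

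The other 6 tested maternally expressed genes averaged under 4 FPKM. Igf2r, the receptor that clears insulin-like growth factor 2, was at 1.29 and 0.957 FPKM in CROC+K+M, against 0.887, 0.340 and 0.207 in CROC+K (log2 difference 0.55 ± 0.36, adjusted p = 0.611, limma). The groups did not overlap as deposited, but did under equal FPKM sums. Airn, the paternally expressed non-coding RNA that overlaps Igf2r on the other strand, was at 0.756 and 0.125 FPKM in CROC+K+M, against 1.46, 1.37 and 2.02 in CROC+K. It stood the opposite way from Igf2r, with all 3 CROC+K libraries above both CROC+K+M libraries (log2 difference -0.89 ± 0.38, unadjusted p = 0.049, adjusted p = 0.478, limma). Airn reached 1 FPKM in the 3 CROC+K libraries alone, and Igf2r in none of them. Each thus entered the test through the groups where it is high, and their opposite order is not independent of that filter. Whether strand was used in counting is not given, so reads of these overlapping genes may be mixed. Cdkn1c, a cyclin-dependent kinase inhibitor, was at 1.76 and 1.69 FPKM in CROC+K+M, against 3.37, 0 and 0.261 in CROC+K. Grb10, an adaptor that dampens insulin signalling, was at 1.95 and 4.45 FPKM in CROC+K+M, against 2.00, 3.84 and 5.33 in CROC+K. Both overlapped between the groups. Meg3, a non-coding RNA of the Dlk1 cluster, was at 1.55 and 3.38 FPKM in CROC+K+M, against 3.79, 1.82 and 5.41 in CROC+K. Zim1, a zinc finger gene beside Peg3, was at 1.61 and 0.884 FPKM in CROC+K+M, against 2.64, 2.23 and 1.02 in CROC+K. Kcnq1, a potassium channel gene that Kcnq1ot1 overlaps, was at 0.602 and 0.758 FPKM in CROC+K+M, against 0.659, 0.742 and 1.51 in CROC+K. These 3 overlapped between the groups as well.

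All 6 tested paternally expressed genes had the lower mean log2 level in CROC+K+M, set against CROC+K, with a median difference of -0.30, where 54.1% of all genes had the higher mean, and Airn was the one with an unadjusted p under 0.05. Mest, a member of the alpha/beta-hydrolase fold family, was at 11.04 and 13.2 FPKM in CROC+K+M, against 18.97, 18.8 and 13.4 in CROC+K (log2 difference -0.45 ± 0.30, adjusted p = 0.611, limma). The groups came close, at 13.2 and 13.4 FPKM in their nearest libraries. Impact, an inhibitor of the translation kinase GCN2, was at 4.58 and 6.41 FPKM in CROC+K+M, against 24.3, 6.24 and 2.22 in CROC+K. Zrsr1, a splicing factor gene that lies within Commd1 and has a close copy in Zrsr2, was at 5.90 and 7.57 FPKM in CROC+K+M, against 4.47, 12.7 and 6.24 in CROC+K. Usp29, a ubiquitin peptidase gene of the Peg3 cluster, was at 2.52 and 6.76 FPKM in CROC+K+M, against 2.21, 6.69 and 5.59 in CROC+K. Impact, Zrsr1 and Usp29 overlapped between the groups. Sgce, which encodes epsilon-sarcoglycan, was listed at 0 in CROC+K+M replicate 1 and at 4.32 FPKM in replicate 2, against 5.45, 0 and 1.93 in CROC+K, so its zeros fell in both groups. That all 6 were lower did not hold without CROC+K+M replicate 1, when 3 of 6 were higher, nor without CROC+K replicate 1, which leaves the 4 libraries with low Rn45s in this comparison, or without CROC+K replicate 2 (2 of 6 higher each), nor without CROC+K replicate 3 (1 of 6).

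**Figure D3:**
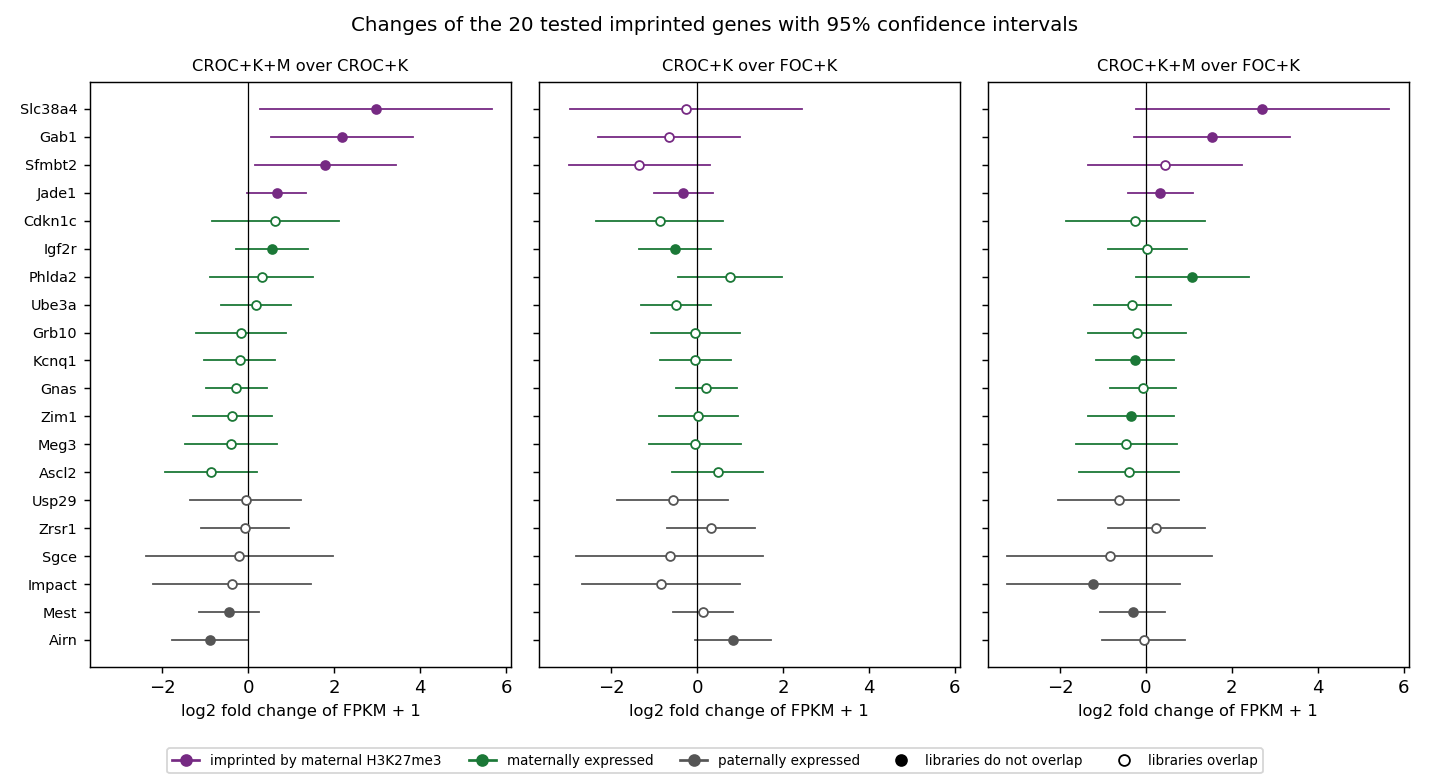
Log2 differences of the 20 tested imprinted genes on the log2(FPKM + 1) scale with 95% confidence intervals from limma, for CROC+K+M over CROC+K, CROC+K over FOC+K and CROC+K+M over FOC+K; colours give the imprinting class, and filled points mark genes whose libraries do not overlap. No gene passed an adjusted p of 0.05, and the intervals of Slc38a4, Gab1, Sfmbt2 and Airn exclude 0 in the first panel.

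Setting CROC+K against FOC+K asks what oocyte cryopreservation does to these genes. It shares its CROC+K libraries with the comparison above, so values that stand opposite in the 2 are not independent. No gene had an adjusted p under 0.05 (0% of 12272, with 2.19% at an unadjusted p under 0.05), and the smallest adjusted p was 0.9996. None of the 20 imprinted genes had an unadjusted p under 0.05. Their median log2 difference was -0.15, against -0.03 over all genes, and 7 were higher in CROC+K (47.3% of all genes) and 13 lower.

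All 4 genes imprinted by H3K27me3 had the lower mean log2 level in CROC+K, with a median of -0.49. FOC+K libraries were at 5.66 and 8.72 FPKM for Sfmbt2 and at 1.25 and 3.85 for Gab1, both above CROC+K replicates 2 and 3 and, for both genes, overlapping CROC+K through its replicate 1. The log2 difference of CROC+K over FOC+K was -1.34 ± 0.70 for Sfmbt2 (unadjusted p = 0.095, adjusted p = 0.9996, limma) and -0.65 ± 0.71 for Gab1. Slc38a4 was at 1.03 and 1.91 FPKM in FOC+K, which overlapped CROC+K. Jade1 was at 10.8 and 8.12 FPKM in FOC+K, above all 3 CROC+K libraries (log2 difference -0.32 ± 0.29, adjusted p = 0.9996, limma). The 3 libraries with high Rn45s are CROC+K replicate 1 and both FOC+K libraries, and among them the differences turned round to 0.10 for Sfmbt2, 0.57 for Gab1 and 0.23 for Slc38a4.

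In 9.66% of genes tested all CROC+K libraries lay above both FOC+K libraries, and in 9.47% below. Among the imprinted genes Airn was the one above, with FOC+K at 0.237 and 0.707 FPKM (log2 difference 0.84 ± 0.38, unadjusted p = 0.059, adjusted p = 0.9996, limma). Igf2r, with FOC+K at 1.13 and 1.001 FPKM, lay below in CROC+K together with Jade1. Airn and Igf2r thus stood opposite each other here too, which rests on the same CROC+K libraries. Airn passed the filter through CROC+K alone, and Igf2r without it. Under equal FPKM sums Airn still lay above (3.46% of genes), and Igf2r, Jade1 and Usp29 lay below (20.6%).

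The other tested genes overlapped between CROC+K and FOC+K. Phlda2 was at 53.7 and 39.9 FPKM in FOC+K, near the lowest CROC+K library. Gnas was at 61.2 and 61.8 FPKM in FOC+K, Ube3a at 20.8 and 13.8, and Ascl2 at 8.31 and 14.97. Among the maternally expressed genes of low level, Grb10 was at 3.57 and 3.70 FPKM in FOC+K, Meg3 at 4.09 and 3.12, Zim1 at 1.95 and 1.68, Cdkn1c at 1.66 and 2.92 and Kcnq1 at 1.01 and 0.979. Each of these pairs lay inside the span of the 3 CROC+K libraries or reached across one end of it. Of the paternally expressed genes, Mest was at 16.4 and 14.0 FPKM in FOC+K, Impact at 10.1 and 19.3, Zrsr1 at 6.37 and 4.70, Usp29 at 10.2 and 4.85 and Sgce at 1.85 and 5.04.

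Set against fresh oocytes, CROC+K+M embryos had the higher mean log2 level in all 4 genes imprinted by H3K27me3, and both of their libraries lay above both FOC+K libraries for Slc38a4, Gab1 and Jade1. With 2 libraries a group, this held in that direction for 21.3% of all genes tested and in the opposite one for 19.8%. No gene had an adjusted p under 0.05 (0% of 12272, with 6.46% at an unadjusted p under 0.05), and the smallest adjusted p was 0.736. The log2 difference of CROC+K+M over FOC+K was 2.71 ± 1.27 for Slc38a4 (adjusted p = 0.757, limma), 1.53 ± 0.78 for Gab1 (adjusted p = 0.757, limma), 0.33 ± 0.32 for Jade1 and 0.45 for Sfmbt2. Their median was 0.99, against 0.04 over all genes. Without CROC+K+M replicate 1 the differences were 0.45 for Slc38a4, 0.87 for Gab1, 0.42 for Jade1 and 0.12 for Sfmbt2. Replicate 2 alone lay above both FOC+K libraries for 39.99% of genes. That it did so for 3 of the 4 follows from the order of both libraries and is no further check. Under equal FPKM sums, which moved the median of all genes to -0.44, none of the 4 lay above both FOC+K libraries, and Jade1 and Sfmbt2 had the lower mean in CROC+K+M, at -0.21 and -0.085.

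Of the 20 imprinted genes, 7 had the higher mean in CROC+K+M (52.9% of all genes) and 13 in FOC+K. Phlda2 was the fourth gene above both FOC+K libraries, at 124 and 79.6 FPKM in CROC+K+M against 53.7 and 39.9 in FOC+K (log2 difference 1.08 ± 0.57, adjusted p = 0.762, limma), and it was the one gene that kept that place under equal FPKM sums (6.74% of genes). With the Rn45s split as a term of the fit its sign turned, to -0.39. Impact, Mest, Zim1 and Kcnq1 lay below both FOC+K libraries. For Impact the values were 4.58 and 6.41 FPKM in CROC+K+M against 10.1 and 19.3 in FOC+K, a log2 difference of -1.23 ± 0.86 (adjusted p = 0.815, limma). Differences of the other 3 were -0.31 for Mest, -0.34 for Zim1 and -0.25 for Kcnq1. No CROC+K+M library reached 1 FPKM for Kcnq1, which was thus tested through libraries of the other groups. Under equal FPKM sums 9 of the 20 lay below both FOC+K libraries, as did 44.2% of all genes. All CROC+K+M libraries had low Rn45s and both FOC+K libraries high Rn45s, so this split and the groups cannot be told apart without CROC+K.

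Factors that protect methylation imprints were measured beside the imprinted genes. Dppa3, a maternal factor that protects the maternal genome from demethylation, had the highest mean of the lists examined, at 18995 and 21936 FPKM in CROC+K+M, 9630, 28800 and 30586 in CROC+K, and 13894 and 10568 in FOC+K. Zfp57, the zinc finger protein that binds methylated TGCCGC at imprinting control regions, was at 51.3 and 39.6 FPKM in CROC+K+M, against 99.3, 77.9 and 82.7 in CROC+K and 65.0 and 73.7 in FOC+K. Both CROC+K+M libraries were thus the lowest of the 7 for Zfp57. They lay below all CROC+K libraries in 11.2% of all genes and below both FOC+K libraries in 19.8%. The sum of the 17 oocyte markers was also lowest there, at 4427 and 4220 FPKM in CROC+K+M, against 5195, 5383 and 6796 in CROC+K and 6665 and 6150 in FOC+K. Oosp1 made up most of each sum, at 3072.5 and 3193 FPKM in CROC+K+M. The median of the 17 was 37.0 and 29.3 FPKM in CROC+K+M, 31.2, 36.0 and 44.4 in CROC+K, and 52.5 and 38.8 in FOC+K. By the median, CROC+K+M replicate 1 lay above CROC+K replicates 1 and 2. The part of oocyte RNA in the Zfp57 difference was not tested. The log2 difference of Zfp57 from CROC+K was -0.92 ± 0.26 (unadjusted p = 0.0087, adjusted p = 0.408, limma) and -1.10 without CROC+K+M replicate 1. From FOC+K it was -0.61 ± 0.29 (adjusted p = 0.757, limma). Trim28, the corepressor that ZFP57 recruits, was at 53.9 and 37.6 FPKM in CROC+K+M, 13.8, 42.4 and 42.0 in CROC+K, and 24.9 and 24.3 in FOC+K. Of 18 tested genes of this list, 7 were higher and 11 lower in CROC+K+M relative to CROC+K, and 5 were higher in CROC+K than in FOC+K, where 54.1% and 47.3% of all genes were higher. In CROC+K+M over FOC+K, 5 of the 18 were higher, against 52.9% of all genes. There 8 lay below both FOC+K libraries (19.8% of all genes) and 2 above (21.3%). Zfp57 was the one with an unadjusted p under 0.05 in CROC+K+M against CROC+K (10.4% of all genes), and none had one in the other comparisons.

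The core subunits of the complex that writes H3K27me3 were measured as well. Eed, the subunit that reads the mark, was at 138 and 107 FPKM in CROC+K+M, 78.7, 124 and 163 in CROC+K, and 88.5 and 73.7 in FOC+K. Ezh2, the catalytic subunit, was at 55.2 and 78.8 FPKM in CROC+K+M, 72.2, 74.9 and 73.1 in CROC+K, and 74.0 and 69.2 in FOC+K. Suz12, a core subunit, was at 152 and 206 FPKM in CROC+K+M, 168, 208 and 215 in CROC+K, and 236 and 222 in FOC+K. Ezh2 overlapped between all groups, while both FOC+K libraries were the highest of the 7 for Suz12. Both FOC+K libraries lay above all CROC+K libraries in 9.47% of all genes and above both CROC+K+M libraries in 19.8%. Rbbp7, a histone-binding subunit with the highest mean of the list, was at 391 and 299 FPKM in CROC+K+M, 212, 403 and 438 in CROC+K, and 253 and 223 in FOC+K. Of the 12 tested genes of H3K27 methylation, 6 were higher and 6 lower in CROC+K+M relative to CROC+K, and 7 were higher in CROC+K than in FOC+K, where 54.1% and 47.3% of all genes were higher. In CROC+K+M over FOC+K, 4 of the 12 were higher, against 52.9% of all genes. There 6 lay below both FOC+K libraries (19.8% of all genes) and 2 above (21.3%). None of the 12 had an unadjusted p under 0.05 in any of the 3 comparisons, against 10.4% of all genes in CROC+K+M over CROC+K, 2.19% in CROC+K over FOC+K and 6.46% in CROC+K+M over FOC+K.

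**Figure D4:**
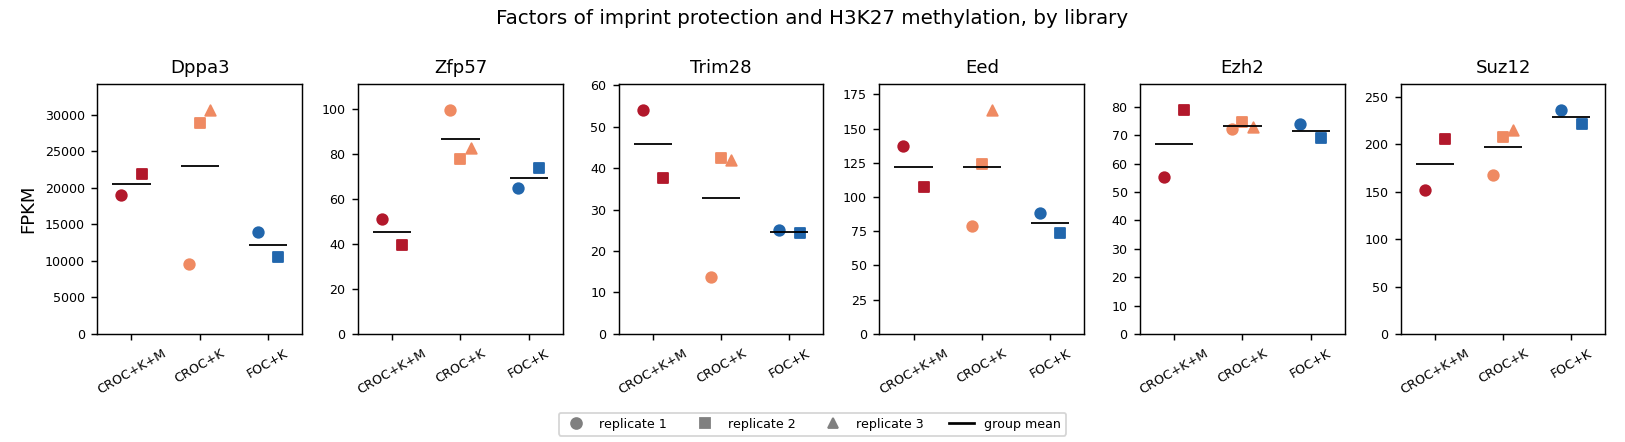
FPKM of Dppa3, Zfp57, Trim28, Eed, Ezh2 and Suz12 in each library, on linear axes from 0, with the replicate number by shape and group means as lines. Both CROC+K+M libraries lie lowest for Zfp57, at 51.3 and 39.6 FPKM. They lie below all CROC+K libraries in 11.2% of all genes and below both FOC+K libraries in 19.8%.

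Imprinted genes beyond the 35 were read from a list of 43 in the table, of which 25 were tested. In CROC+K+M against CROC+K, 11 were higher (54.1% of all genes) and 14 lower. Unadjusted p-values were under 0.05 for 2 higher genes (6.69% of all genes) and 4 lower genes (3.75%), the lower ones being Asb4, Atp10a, Th and Ddc, of which Asb4, Atp10a and Th are named after their values were seen. Atp10a reached 1 FPKM only in CROC+K replicates 2 and 3, so it was tested through the group where it is high. Besides Xist, the higher one was Nespas, an antisense RNA of the Gnas cluster, at 1.56 and 2.53 FPKM in CROC+K+M, against 0.805, 0 and 0 in CROC+K and 1.04 and 1.51 in FOC+K. It overlaps other transcripts of that cluster, so its values are uncertain. Nespas reached 1 FPKM in no CROC+K library, so it was tested through the groups where it is high. Its log2 difference from CROC+K was 1.30 ± 0.41 (unadjusted p = 0.014, adjusted p = 0.408, limma). Ins2, an insulin gene, was at 3.95 and 4.23 FPKM in CROC+K+M, 1.43, 3.66 and 1.57 in CROC+K, and 0.817 and 0 in FOC+K. All 5 libraries from cryopreserved oocytes thus lay above both from fresh ones. Such an order over FOC+K held for 21.3% of all genes in CROC+K+M and for 9.66% in CROC+K. Ins2 reached 1 FPKM only in those 5 libraries, so it was tested through the groups where it is high. Its log2 difference from FOC+K was 1.92 ± 0.49 in CROC+K+M (unadjusted p = 0.0049, adjusted p = 0.736, limma) and 1.19 ± 0.45 in CROC+K (unadjusted p = 0.030, adjusted p = 0.9996, limma). Ddc, which encodes a decarboxylase of monoamine synthesis and lies beside Grb10, was at 1.71 and 1.82 FPKM in CROC+K+M, 4.21, 3.67 and 4.43 in CROC+K, and 2.29 and 2.83 in FOC+K. As deposited the groups do not overlap for Ddc, which lay lower in CROC+K+M against both CROC+K (11.2% of all genes) and FOC+K (19.8%), and higher in CROC+K than in FOC+K (9.66%). Its CROC+K difference from FOC+K was 0.52 ± 0.32 (adjusted p = 0.9996, limma), and under equal FPKM sums it was 0.27 and the libraries of these 2 groups overlapped.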

How the data were processed

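RNA of pooled SCNT embryos was sequenced in 7 libraries, from RNA with an RIN over 7.0, by SMARTer Ultra Low Input and ScriptSeq v2 kits, per the labels' protocols. Values in the deposited table are FPKM per gene and library. Cufflinks 2.2.1 with Cuffnorm, STAR 2.5.2b, R 3.3.2 and build mm9 stand in the submitters' processing notes. The annotation, the scaling between libraries and any use of strand were not given in the sources used here. Depth is unknown, so no counting interval is given. The labels speak of biological replicates without naming separate cultures, so p-values measure the spread between these libraries.

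Values were used as deposited, as log2(FPKM + 1), which understates changes of low genes. Genes at 1 FPKM or more in at least 2 libraries were tested, without 1274 rows of small RNA and rRNA precursor genes, which left 12272 genes. Tests used limma 3.58.1 in R 4.3.3 with an intensity trend, with 1 model over all 7 libraries and no covariate but group (residual degrees of freedom 4), two-sided, with Benjamini-Hochberg adjustment over all genes and a threshold of 0.05. The fit was tested on simulated data. Errors are limma's standard errors. Figures used matplotlib 3.10.9 in Python 3.11.15. Alternatives were another pseudocount (0.1), no filter, equal FPKM sums, quantile normalization, a replicate block, leaving out each library, the Rn45s split (at 500 FPKM) and robust moderation.

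The members, lists and tests were chosen with earlier results of these data known. All 35 genes are accounted for, the tested ones with every library's value. Of 3 further lists the text names the 3 genes with the smallest unadjusted p in each comparison over the lists together, the 3 with the highest mean, and Dppa3, Zfp57, Trim28, Eed, Ezh2 and Suz12. Promoter windows are from RefSeq on GRCm38.p6, a later build than mm9, and no other coordinates are given. Counts of libraries that do not overlap were repeated with equal FPKM sums and without CROC+K+M replicate 1, which was chosen after seeing the data.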

Additional observations from a re-analysis of the deposited data

How the results depend on the processing

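Across 16 settings, 453 alternative values of 31 log2 differences were computed: 437 kept their direction and side of the threshold, 13 reversed and 3 passed the threshold. These are not separate checks. Robust moderation, no filter and leaving out a library of a group not compared cannot change a log2 difference. In CROC+K+M over CROC+K, the Rn45s term, the low-Rn45s libraries and leaving out CROC+K replicate 1 coincide. The replicate block and leaving out CROC+K replicate 3 coincide there too. With the Rn45s split as a term or within the high-Rn45s libraries, CROC+K over FOC+K reversed for Gab1 (0.57), Sfmbt2 (0.10) and Slc38a4 (0.23), and 12 imprinted genes were higher in place of 7; with the split as a term, CROC+K+M over FOC+K reversed for Impact (1.17), Phlda2 (-0.39) and Zim1 (0.17), and 11 genes were higher in place of 7. With equal FPKM sums, CROC+K+M over FOC+K reversed for Jade1 (-0.21) and Sfmbt2 (-0.085), and 4 genes were higher in CROC+K over FOC+K and 3 in CROC+K+M over FOC+K. Leaving out 1 library at a time, Slc38a4 in CROC+K over FOC+K ran from -0.52 to 0.14. The number of genes past the threshold ran from 0 to 658 in CROC+K+M over CROC+K and from 0 to 546 in CROC+K+M over FOC+K. The upper ends came without CROC+K+M replicate 2, when the library with trophectoderm markers stands alone for its group and is assumed to vary like the others. Slc38a4 then passed in both (adjusted p = 0.0069 and 0.011, limma) and Xist in the first (adjusted p = 0.023, limma). The cause of the reversals was not tested. Equal replicate numbers did not pair the libraries, whose deviations correlated between -0.457 and 0.0297; with a replicate block 0 genes passed in each comparison, Gab1 was at 1.91 in CROC+K+M over CROC+K, and the block changed no call. The depth behind values under 1 FPKM is unknown, which limits what can be said of the low genes.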

Other observations

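Several imprinted genes outside the 35 were highest in CROC+K+M replicate 1, the library with trophectoderm markers; they were chosen after their values were seen. Pon2, a paraoxonase gene, was at 41.9 FPKM there and at 0 in replicate 2, against 1.24, 0.252 and 2.69 in CROC+K and 0.286 and 0.726 in FOC+K. Cd81, a tetraspanin gene, was at 8.91 and 0.343 FPKM in CROC+K+M, against 0, 1.57 and 0.335 in CROC+K and 0 and 0.258 in FOC+K. Snrpn, a splicing factor gene that shares its transcript with Snurf, was at 126 and 47.2 FPKM in CROC+K+M, against 39.5, 42.2 and 48.3 in CROC+K and 52.1 and 49.9 in FOC+K. Commd1, the host gene of Zrsr1, was at 198 and 57.6 FPKM in CROC+K+M, against 56.4, 47.9 and 74.1 in CROC+K and 50.0 and 51.0 in FOC+K. In all 4 the second CROC+K+M library lay within or near the range of the other 5.

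Th, which encodes tyrosine hydroxylase and neighbours Ins2 and Ascl2, was lower in both CROC+K+M libraries (20.1 and 16.0 FPKM) than in all 3 CROC+K libraries (33.3, 32.8 and 28.6), with FOC+K between them at 26.2 and 22.0. Over all genes tested, CROC+K+M lay wholly below CROC+K in 11.2%. The log2 difference of Th between CROC+K+M and CROC+K was -0.78 ± 0.27 (unadjusted p = 0.021, adjusted p = 0.426, limma), and Th was likewise chosen after its values were seen.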
